A study of Mus musculus with 3 samples.

Results

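The ETS genes described here are 10 mouse transcription factor genes, Erg, Fli1, Ets1, Ets2, Etv6, Elk3, Elf1, Elf3, Elf5 and Ehf. They were chosen by name, as family members known from endothelium, from epithelium or from both, with earlier results of these data known. They were found by Ensembl gene identifier. All 10 were present among the 52661 genes of each deposited table. Bulk RNA sequencing measured them in 3 sorted populations of mouse mammary cells, with 1 library for each. The labels call all of them PROCR-positive mammary epithelial cells from a gate with EpCAM and high CD49f. The CD36+ library is positive for CD36, negative for podoplanin (PDPN) and titled Cdh5 positive. The double-negative library lacks both surface proteins and is also titled Cdh5 positive. The PDPN+ library is negative for CD36, positive for PDPN and titled Cdh5 negative. The sources used here give no strain, genotype, age, treatment or number of mice, and do not say which of 2 library kits served which population, so kit and population cannot be told apart.

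ETS factors share a DNA-binding domain that reads a short core, GGAA, and differ in the cells that make them and in the proteins they bind. ERG, FLI1 and ETS1 activate junction and receptor genes in endothelial cells, and ERG is needed to keep those cells endothelial. ELF3, ELF5 and EHF belong to an epithelial branch, and ELF5 directs the milk-secreting fate of luminal mammary cells. ELK3 binds DNA together with serum response factor and is switched by ERK signalling, while ETV6 is mainly a repressor, and ETS2 and ELF1 are made in many tissues.

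The estimated counts summed to 67675778 in CD36+ cells, 51138993 in double-negative cells and 63871266 in PDPN+ cells. Levels within a gene are in counts-per-million (CPM), scaled by trimmed means (TMM). Levels between genes are in the deposited transcripts-per-million (TPM), which are corrected for length. With 1 library for each population there is no replicate error and no test, so the 95% intervals given cover counting error only and each difference is one between libraries. Reads may include PCR copies, since no molecular identifiers are described. Genes are called apart when 2 libraries differ by 4-fold or more, with 10 CPM or more in the higher one.

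Markers of the sorted cells went against the epithelial label in 2 of the 3 libraries. The 8 endothelial markers, among them Pecam1, Cdh5 and Kdr, summed to 4450.0 CPM in CD36+ cells, 3045 CPM in double-negative cells and 109 CPM in PDPN+ cells. The 6 basal epithelial markers, among them Trp63 and Krt14, summed to 37.9, 217 and 4977 CPM in the same order. The 8 luminal markers summed to 446, 389 and 991 CPM, and 8 markers of luminal progenitors and alveolar cells to 1146, 944 and 40.3 CPM, most of it in the Cdh5-positive libraries from Cd14. The 11 immune markers summed to 44.5, 63.2 and 3.81 CPM, of which Fcer1g gave 21.4, 57.4 and 0 CPM, Tyrobp had 0 counts in all 3, and the leukocyte gene Ptprc stood at 1.10, 0.970 and 0.798 CPM. The 6 fibroblast markers summed to 116, 61.1 and 611 CPM, and the 7 pericyte markers to 259, 189 and 70.6 CPM. The part of these other cell types in the ETS differences was not tested. In bulk samples such as these, fewer cells of a type and less RNA per cell cannot be told apart.

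Promoter windows are shown for 3 members that stand for the main patterns below. Erg was far higher in the Cdh5-positive libraries than in PDPN+ cells, its neighbour Ets2 was abundant in all 3, and Elf3 was near 0 in all 3. The sequences are from RefSeq on GRCm38.p6, 250 bases before to 50 after an annotated start, 5′ to 3′ on the gene's strand, with each GGAA or its reverse complement TTCC in capitals. The Erg window is the outermost of 3 starts, at chr16:95586544-95586843, minus strand. The Ets2 window is at chr16:95702157-95702456, plus strand, and the Elf3 window at chr1:135258423-135258722, minus strand.
Erg: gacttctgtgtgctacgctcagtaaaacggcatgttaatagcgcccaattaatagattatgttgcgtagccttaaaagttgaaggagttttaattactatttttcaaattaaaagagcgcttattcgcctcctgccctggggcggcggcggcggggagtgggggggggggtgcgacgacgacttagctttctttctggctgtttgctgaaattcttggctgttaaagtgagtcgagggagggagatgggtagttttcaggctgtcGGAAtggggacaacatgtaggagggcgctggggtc
Ets2: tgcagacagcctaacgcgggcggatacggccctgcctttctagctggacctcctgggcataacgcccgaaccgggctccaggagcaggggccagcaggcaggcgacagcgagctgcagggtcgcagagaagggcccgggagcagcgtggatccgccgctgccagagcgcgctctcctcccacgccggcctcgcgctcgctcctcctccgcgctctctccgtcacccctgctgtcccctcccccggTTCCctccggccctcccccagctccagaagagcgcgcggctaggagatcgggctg
Elf3: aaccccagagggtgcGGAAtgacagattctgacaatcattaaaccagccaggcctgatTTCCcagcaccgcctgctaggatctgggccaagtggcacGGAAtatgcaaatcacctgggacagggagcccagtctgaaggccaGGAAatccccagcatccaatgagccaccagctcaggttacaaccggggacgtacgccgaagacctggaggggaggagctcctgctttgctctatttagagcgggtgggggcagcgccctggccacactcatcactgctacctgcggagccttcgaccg

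The tables held windows for 7 of the 10 members, 11 windows in all. The core GGAA, read on both strands, occurred 1 time in the Erg window, 1 time in the Ets2 window and 4 times in the Elf3 window. It is present in 96.0% of all 32851 windows of this length, with a median of 3, so its presence sets none of them apart. The longer form CCGGAA, which contains that core, was in none of the 11 windows and is in 14.9% of all windows. The E-box CANNTG is the site read by the TCF4 protein of the study's title, and occurs in 72.3% of all windows. It had no match in the windows shown for Erg and Ets2 and 2 matches in that of Elf3. The inner Erg starts, not shown, had 0 and 2 E-box matches and 4 and 2 GGAA matches. Which Erg start these cells used was not tested. The share of G and C bases was 50.3% for Erg, 71.7% for Ets2 and 59.0% for Elf3, against a median of 52.7% over all windows.

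Erg, Fli1 and Ets1 were high in both Cdh5-positive libraries and low in PDPN+ cells. Erg (mm10 chromosome 16, minus strand, 95359169 to 95586593) stood at 91.7 CPM in CD36+ cells, 108 CPM in double-negative cells and 2.73 CPM in PDPN+ cells. Its ratio to the PDPN+ library was 33.6 for the CD36+ library (95% counting interval 29.2 to 38.8) and 39.5 for the double-negative library (34.4 to 45.7). Erg was the one gene of the trio that was higher in double-negative than in CD36+ cells, by 1.18-fold (1.13 to 1.22).

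Fli1, the closest relative of Erg in the family (chromosome 9, minus strand, 32422204 to 32542861), stood at 429.9 CPM in CD36+ cells, 204 CPM in double-negative cells and 5.06 CPM in PDPN+ cells. Its ratio to the PDPN+ library was 85.0 for the CD36+ library (76.8 to 94.4), the largest among the 10 members, and 40.3 for the double-negative library (36.4 to 44.8). Fli1 was 2.11-fold higher in CD36+ than in double-negative cells (2.06 to 2.16), while Erg leaned the other way. Unclassified transcripts on the Fli1 strand may share reads with Fli1. In CD36+, double-negative and PDPN+ cells, Gm37474 had 34.5, 29.6 and 0.744 CPM and Gm38292 had 0.0338, 10.7 and 0.0135 CPM. Gm38346 and Gm37082 stood at 1.81 CPM or less.

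Ets1, a factor of angiogenic endothelium and of lymphocytes (chromosome 9, plus strand, 32636221 to 32757820), was the most abundant member by CPM in the CD36+ and double-negative libraries. It stood at 965 CPM in CD36+ cells, 676 CPM in double-negative cells and 19.0 CPM in PDPN+ cells. The ratios to the PDPN+ library were 50.7 (48.1 to 53.5) and 35.6 (33.7 to 37.5). Ets1 was 1.43-fold higher in CD36+ than in double-negative cells (1.41 to 1.45).

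**Figure D1:**
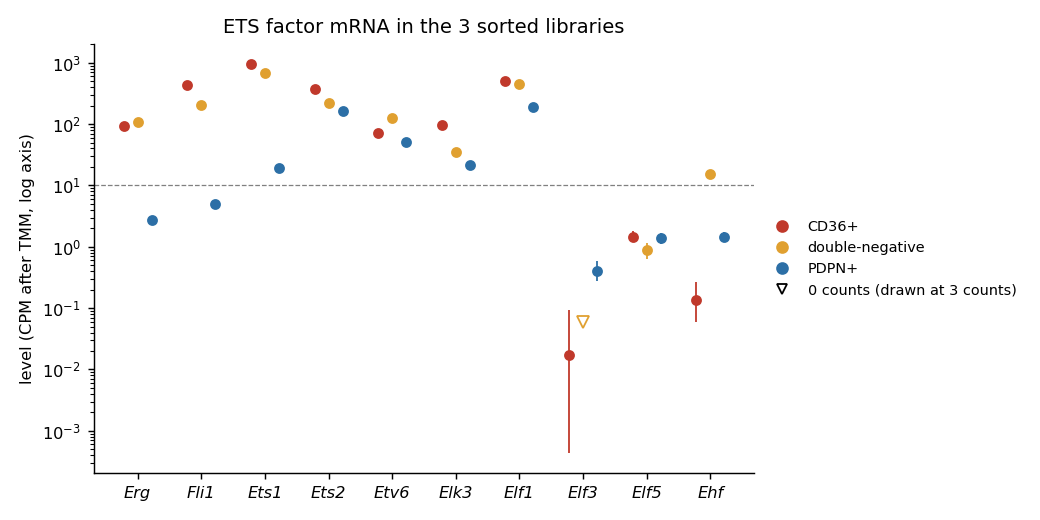
Level of each of the 10 ETS genes in the 3 libraries, in CPM on a log axis, with 1 point per library and bars for the 95% counting interval; the dashed line is at 10 CPM and the open triangle stands for 0 counts, drawn at 3 counts. Erg, Fli1 and Ets1 lie at 91.7 CPM or above in the Cdh5-positive libraries and at 19.0 CPM or below in PDPN+ cells, and Elf3 and Elf5 lie below 10 CPM everywhere.

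Ets2, Etv6, Elf1 and Elk3 were present at 21.5 CPM or more in every library. Ets2, the ERK-responsive relative of Ets1 (chromosome 16, plus strand, 95702075 to 95721051), stood at 375 CPM in CD36+ cells, 224 CPM in double-negative cells and 162 CPM in PDPN+ cells. Its ratios to the PDPN+ library were 2.32 (2.27 to 2.37) and 1.39 (1.35 to 1.42), both below 4-fold. By the deposited TPM the second of these was 1.04, so the sizes of the Ets2 gaps rest on the scale.

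Elf1, a broad factor with roles in lymphoid and endothelial genes (chromosome 14, plus strand, 79481194 to 79582494), stood at 509 CPM in CD36+ cells, 458 CPM in double-negative cells and 193 CPM in PDPN+ cells. The ratios to the PDPN+ library were 2.64 (2.59 to 2.69) and 2.38 (2.33 to 2.43). The 1.11-fold gap between CD36+ and double-negative cells (1.09 to 1.13) turned under scaling by total counts, to a log2 ratio of -0.022. Elf1 overlaps Wbp4, on the other strand, over 327 bases.

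Etv6, the repressor (chromosome 6, plus strand, 134035700 to 134270158), stood at 71.6 CPM in CD36+ cells, 125 CPM in double-negative cells and 50.4 CPM in PDPN+ cells. It was highest in double-negative cells, 2.49-fold above the PDPN+ library (2.39 to 2.59), and 1.75-fold lower in CD36+ than in double-negative cells (1.68 to 1.82). An unclassified transcript on the same strand within Etv6, Gm43984, had 158, 180 and 106 CPM in CD36+, double-negative and PDPN+ cells, more than Etv6 itself in each.

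Elk3, the ternary complex factor (chromosome 10, minus strand, 93247414 to 93311135), stood at 97.0 CPM in CD36+ cells, 35.0 CPM in double-negative cells and 21.5 CPM in PDPN+ cells. The CD36+ library was 4.50-fold above the PDPN+ library (4.26 to 4.76) and 2.77-fold above the double-negative library (2.62 to 2.92). By TPM the same ratios were 1.72 and 1.69, and the first of them was no longer apart. Elk3 overlaps the kinase gene Cdk17 on the other strand over 19658 bases of gene span, introns included. Shared exon sequence was not measured and the strand setting of the counting is not given. Whether reads of the pair are mixed was not tested. Cdk17 stood at 211, 98.5 and 61.4 CPM in CD36+, double-negative and PDPN+ cells, the same order as Elk3.

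The epithelial members were scarce in all 3 libraries, including the PDPN+ library with its basal epithelial markers. Elf3 (chromosome 1, minus strand, 135253575 to 135258568) had 1 count in CD36+ cells, 0 counts in double-negative cells and 30 counts in PDPN+ cells. These correspond to 0.0169 CPM, at most 0.0594 CPM by a floor of 3 counts, and 0.406 CPM. Elf3 was 24.0-fold lower in CD36+ than in PDPN+ cells, with an interval of 3.99 to 979.7, and at least 6.83-fold lower in double-negative than in PDPN+ cells. All of these levels lie far below 10 CPM.

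Elf5 (chromosome 2, plus strand, 103411688 to 103450989) had 87, 44 and 102 counts in CD36+, double-negative and PDPN+ cells, which is 1.47, 0.871 and 1.38 CPM. The CD36+ and PDPN+ libraries differed by 1.07-fold, with an interval from 0.791 to 1.43 that spans equality, and the sign of the gap turned under total counts and TPM (log2 ratios of -0.31 and -0.29). The double-negative library was 1.58-fold below the PDPN+ library (1.10 to 2.31), at less than 1 CPM.

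Ehf (chromosome 2, minus strand, 103263433 to 103303278) was the exception within the epithelial branch. It had 8 counts in CD36+ cells, 779 counts in double-negative cells and 108 counts in PDPN+ cells, which is 0.135, 15.4 and 1.46 CPM. The double-negative library stood 10.6-fold above the PDPN+ library (8.63 to 13.0). The CD36+ library was 114-fold below the double-negative library (57.7 to 265) and 10.8-fold below the PDPN+ library (5.29 to 25.7). By TPM the double-negative library was 5.65-fold above the PDPN+ library, and the CD36+ library was 24.2-fold below it. The basal keratin gene Krt14 stood at 0.186, 122.6 and 1425 CPM in CD36+, double-negative and PDPN+ cells, and the epithelial cadherin gene Cdh1 at 0.861, 37.0 and 215 CPM. The basal markers did not move as one, since Krt5 stood at 18.4, 3.03 and 239 CPM and Lama3 at 6.93, 0.436 and 297 CPM. Whether these epithelial transcripts and Ehf came from the same cells was not tested.

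**Figure D2:**
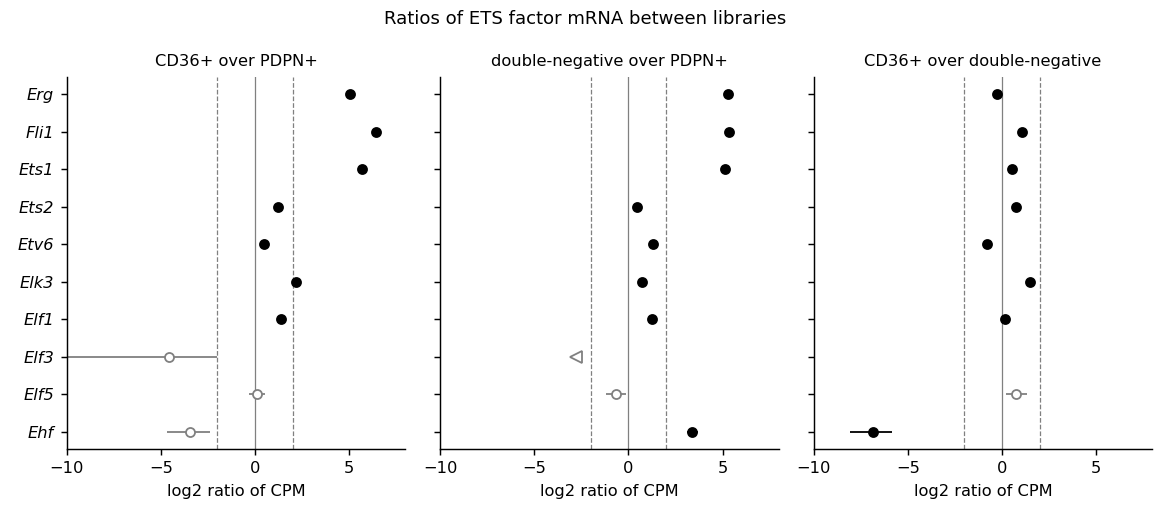
Log2 ratio of CPM for each ETS gene in the 3 comparisons, with bars for the 95% counting interval, dashed lines at 4-fold, and open symbols where neither library reached 10 CPM; the triangle is a limit from 0 counts, Elf3 had too few counts for a value in the right panel and its bar in the left panel runs to the edge. Erg, Fli1 and Ets1 lie near 5 log2 units or above against the PDPN+ library, and Ehf alone lies beyond 4-fold between CD36+ and double-negative cells.

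Of the 10 members, 7 reached 10 CPM in the CD36+ or the PDPN+ library. At the 4-fold rule, 4 were higher in CD36+ cells, namely Erg, Fli1, Ets1 and Elk3, and 0 were lower. Over all 9387 genes at that level, 15.1% were higher and 17.6% lower, with a median log2 ratio of -0.02. Over all genes, scaling by total counts gave 1120 higher and 2124 lower and the deposited TPM gave 1088 and 2041, against 1416 and 1655 with TMM, and both left 3 members higher, without Elk3. Against the PDPN+ library, the double-negative library had 8 members at 10 CPM, of which Erg, Fli1, Ets1 and Ehf were apart, all higher. Over all 9515 genes of that comparison, 14.9% were higher and 19.3% lower, with a median of -0.11. These comparisons share the PDPN+ library, and the members were chosen with earlier results of these data known. Between CD36+ and double-negative cells, 1 of 8 members was apart, Ehf, lower in CD36+ cells, where 12.2% of 8968 genes were higher and 11.9% lower with a median of 0.11. A share of 1 in 8 members is close to that background.

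By TPM, which allows levels of different genes to be set side by side, Ets1 led the 10 members in the CD36+ library with 219 TPM. The orders given here are among these members only. Elf1 and Fli1 came next at 153 and 151 TPM, with counting intervals that overlap (151.4 to 154.8 and 149.3 to 153.0), followed by Ets2 at 119, Elk3 at 41.5, Erg at 35.4 and Etv6 at 18.3 TPM. Below them stood Elf5 at 0.557, Ehf at 0.0367 and Elf3 at 0.0109 TPM, the last pair with overlapping intervals. In the double-negative library the order was Ets1 at 175, Elf1 at 150.5, Fli1 at 78.5, Ets2 at 77.5, Erg at 46.0, Etv6 at 34.3, Elk3 at 24.5 and Ehf at 5.01 TPM. Fli1 and Ets2 had overlapping intervals there. Elf5 stood at 0.344 TPM, and Elf3 is listed at 0. In the PDPN+ library Elf1 led the members with 80.6 TPM, ahead of Ets2 at 74.2, Elk3 at 24.2, Etv6 at 14.5 and Ets1 at 6.03 TPM. Of the ETS genes outside the members, Elk4 stood above Elf1 there, at 85.2 TPM, and Elf2 at 73.1 TPM. Fli1 stood at 2.49, Erg at 1.47, Ehf at 0.887, Elf5 at 0.689 and Elf3 at 0.365 TPM, with overlapping intervals for Ehf and Elf5.

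Over a list of 26 mouse ETS genes, the summed level was 977 TPM in CD36+ cells, 745 TPM in double-negative cells and 416 TPM in PDPN+ cells. Erg, Fli1 and Ets1 together made up 41.5%, 40.2% and 2.40% of those sums. Elf3, Elf5 and Ehf made up 0.0619%, 0.718% and 0.467%. Elf1, Elf2, Elk4 and Ets2 supplied 44.3% of the sum in CD36+ cells, 46.6% in double-negative cells and 75.3% in PDPN+ cells. The trio held 406, 299.5 and 9.99 TPM in CD36+, double-negative and PDPN+ cells. It thus accounted for most of the gap in the family's sum between each Cdh5-positive library and PDPN+ cells. It did not account for most of the smaller gap between CD36+ and double-negative cells.

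**Figure D3:**
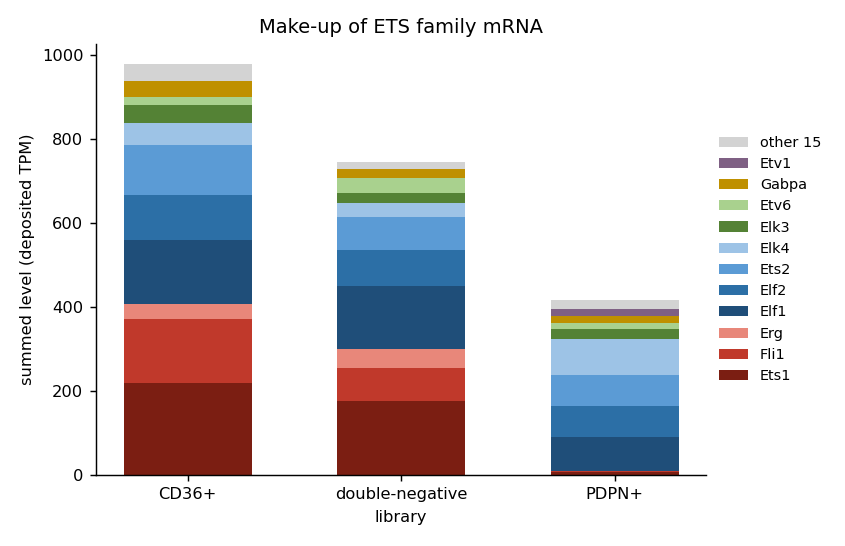
Summed TPM of 26 ETS genes in each library, stacked by gene, with the other 15 genes pooled in grey. The red blocks (Ets1, Fli1 and Erg) reach 406 TPM in CD36+ cells and 299.5 TPM in double-negative cells, and 9.99 TPM in PDPN+ cells, where the blue blocks (Elf1, Elf2, Ets2 and Elk4) make up most of the bar.

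The ratio of estimated reads to TPM gives the mean effective length of a gene's transcripts weighted by abundance, which reports on the transcript mix. Annotated lengths are those of GENCODE M21, whose gene versions matched the files for 8 members, Erg and Ets2 being the exceptions. Fli1 had 3127, 3139 and 3132 bases in CD36+, double-negative and PDPN+ cells, the effective length of its longest coding transcript (3318 bases), so its reads were assigned to that 1 transcript throughout. The longest coding transcript of Ets1 (5080 bases) held 98.3% to 98.9% of its TPM in CD36+ cells, 92.0% to 94.8% in double-negative cells and 99.3% to 99.5% in PDPN+ cells. Those ranges are the limits that the mean length allows over all mixes of annotated transcripts.

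Elk3 shifted most between libraries. Its weighted effective length was 2570 bases in CD36+ cells, 1726 bases in double-negative cells and 1376 bases in PDPN+ cells. The full-length coding transcript of 4212 bases could hold 43.3% to 58.1% of Elk3 TPM in CD36+ cells, 9.85% to 33.4% in double-negative cells and at most 23.5% in PDPN+ cells. The CD36+ range does not overlap the others. Etv6 went the other way, with 4292 and 4421 bases in the CD36+ and double-negative libraries and 5378 bases in PDPN+ cells, near its coding transcripts of 5545 and 5707 bases.

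The few Elf5 reads were assigned largely outside its coding transcripts. The weighted effective length was 2901, 3083 and 3076 bases in CD36+, double-negative and PDPN+ cells. The longest coding transcript has 2532 bases, whereas the retained-intron transcript Elf5-204, the longest annotated, has 3262 bases. In the double-negative and PDPN+ libraries the estimates placed all Elf5 reads on Elf5-204, 44 and 102 counts, and in CD36+ cells that transcript held 76.7% to 93.6% of Elf5 TPM. For Ehf the weighted length was 3721 bases in double-negative cells and 2534 bases in PDPN+ cells, and its longest coding transcript (4469 bases) could hold 26.4% to 85.6% and at most 55.6%. All of these are the quantifier's own assignments, with no read-level evidence examined here.

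**Figure D4:**
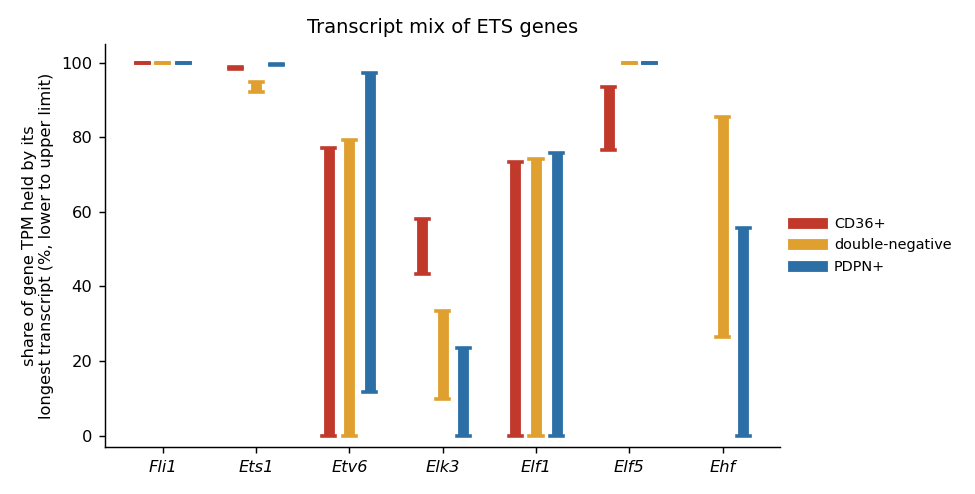
Share of each gene's TPM that its longest annotated transcript can hold, in percent, drawn from the lower to the upper limit set by the weighted effective length, for 7 members whose gene version matched the annotation; Elf3 is left out for its low counts and Ehf has no CD36+ value (8 counts). The limits for Fli1 are near 100% in every library, those for Elk3 lie at 43.3% to 58.1% in CD36+ cells against at most 33.4% elsewhere, and the Elf5 transcript is a retained-intron form.

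The members include 3 pairs of neighbours that face away from each other on the chromosome, and the neighbours did not always share a pattern. Erg and Ets2 are separated by 115481 bases on chromosome 16 with 0 annotated genes between them. Erg was 33.6-fold higher in CD36+ than in PDPN+ cells, and Ets2 2.32-fold. Fli1 and Ets1 lie 93359 bases apart on chromosome 9 with 2 noncoding genes between them, and CD36+ cells exceeded PDPN+ cells by 85.0-fold and 50.7-fold. Ehf and Elf5 lie 108409 bases apart on chromosome 2, with 0 coding genes between them. Ehf was 10.6-fold higher in double-negative than in PDPN+ cells, while Elf5 was 1.58-fold lower.

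The other 16 genes of the ETS list showed further members on both sides, and 12 of them reached 1 CPM in some library. Elf4, an X-linked relative of Elf1, followed the endothelial trio, with 29.4 CPM in CD36+ cells, 11.3 CPM in double-negative cells and 0.419 CPM in PDPN+ cells. Its ratios to the PDPN+ library were 70.1 (49.2 to 103) and 26.9 (18.7 to 39.9). Etv5, of the PEA3 group, stood at 9.12, 14.97 and 0.554 CPM, and Gabpa, a broad activator of mitochondrial genes, at 141, 87.3 and 34.6 CPM in the same order. Elf2, another relative of Elf1, stood at 258, 154 and 82.1 CPM.

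Etv1, a PEA3-group factor, was tilted to the PDPN+ library, with 0.997 CPM in CD36+ cells, 0.198 CPM in double-negative cells and 41.1 CPM in PDPN+ cells. It was 41.3-fold lower in CD36+ cells (31.9 to 54.3) and 208-fold lower in double-negative cells (113 to 433). By TPM these gaps were 90.9-fold and 493-fold, so their size rests on the scale. The ternary complex factor Elk1 stood at 0.0507, 0.119 and 3.68 CPM. Its relative Elk4 was closer to even by CPM, at 64.7, 54.8 and 72.2. By TPM Elk4 stood at 52.7, 34.0 and 85.2, 2.50-fold lower in double-negative than in PDPN+ cells, so its evenness rests on the scale. Its 85.2 TPM in PDPN+ cells rests on a weighted effective length of 1310 bases. Etv3 and Erf, which encode repressors, were low in double-negative cells alone, Etv3 at 57.4, 4.65 and 38.6 CPM and Erf at 2.65 CPM, 0 counts and 1.70 CPM. Spi1, the myeloid factor PU.1, had 123, 0 and 2 counts, which is 2.08 CPM in CD36+ cells. Its 10.7 TPM there rests on a weighted effective length of 214 bases. Spib and Spic stayed between 0.365 and 1.12 CPM. At the 4-fold rule, 2 of the 6 genes at 10 CPM were higher and 1 lower in CD36+ against PDPN+ cells. Over all genes, 15.1% were higher and 17.6% lower. Gabpa, 1 of those higher, stood at 4.08-fold (3.91 to 4.27), and at 2.47-fold by TPM. In double-negative against PDPN+ cells 2 of 7 were higher and 2 lower, against 14.9% and 19.3% of all genes, and between CD36+ and double-negative cells 1 of 6 was higher and 0 lower, against 12.2% and 11.9%. Its medians were 0.93, -0.15 and 0.72 on the log2 scale.

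**Figure D5:**
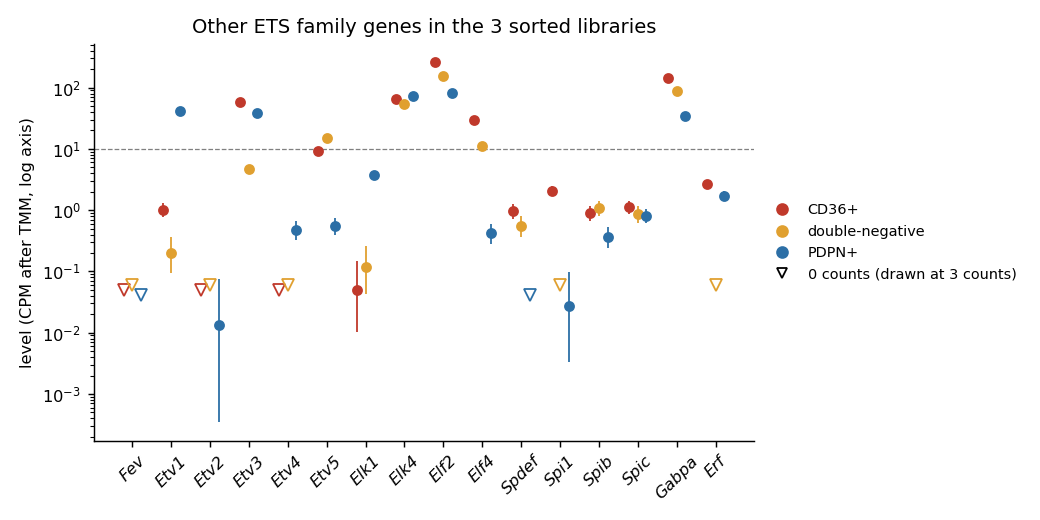
Level of the other 16 ETS genes in the 3 libraries, in CPM on a log axis, with 95% counting intervals and the dashed line at 10 CPM. Elf4 lies high in the Cdh5-positive libraries, at 29.4 and 11.3 CPM against 0.419 CPM in PDPN+ cells, and Etv1 lies at 0.997 and 0.198 CPM there against 41.1 CPM in PDPN+ cells.

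Endothelial genes with described ETS sites followed the trio. Of 18 listed, 17 were at least 4-fold higher and 0 lower in CD36+ against PDPN+ cells, against 15.1% and 17.6% of all genes. The median log2 ratio was 6.31. All 17 that reached 10 CPM were higher in double-negative against PDPN+ cells, against 14.9% of all genes, with a median of 5.66. The list shares genes with the endothelial markers and includes Cdh5, the gene of the library titles, so its counts are not independent of those labels. The adhesion gene Pecam1 stood at 1475, 1165 and 68.4 CPM in CD36+, double-negative and PDPN+ cells. The VEGF receptor gene Flt1 stood at 986, 639.6 and 16.2 CPM, and Vwf, the clotting carrier, at 724, 518 and 7.69 CPM. Flt4, the lymphatic VEGF receptor gene, was the one not apart, at 11.9, 3.09 and 4.12 CPM. Between CD36+ and double-negative cells 0 of 18 were apart in either direction, against 12.2% of all genes higher and 11.9% lower, with a median of 0.71.

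Of 13 listed partners of endothelial ETS factors, 9 reached 10 CPM in each comparison and 5 were apart against the PDPN+ library, all higher in both Cdh5-positive libraries, namely Sox7, Lmo2, Sox17, Foxc1 and Tal1. Over all genes, 15.1% were higher and 17.6% lower in CD36+ against PDPN+ cells, and 14.9% and 19.3% in double-negative against PDPN+ cells. The SOX factor gene Sox7 stood at 296, 153 and 2.72 CPM in CD36+, double-negative and PDPN+ cells. The bridging factor gene Lmo2 stood at 108 and 99.1 CPM against 0 counts. Foxo1, at 201, 162 and 319 CPM, and Klf4, at 179, 118 and 99.8 CPM, were within 4-fold. The list's medians were 2.97, 4.06 and 0.23 for the CD36+ against PDPN+, double-negative against PDPN+ and CD36+ against double-negative libraries.

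Among 10 genes of the serum response factor circuit that ELK factors share, Mrtfb, a coactivator of that factor, stood at 623, 517 and 75.5 CPM and Mcl1, a survival gene, at 475, 349 and 118 CPM. Srf itself stood at 4.02, 2.83 and 4.62 CPM. Egr2 went the other way, at 0.0338, 0.812 and 16.0 CPM. Of 9 genes at 10 CPM it was the one lower in CD36+ than in PDPN+ cells, against 2 higher. Mcl1, 1 of those higher, stood at 4.01-fold (3.92 to 4.11), and at 2.86-fold by TPM. Over all genes, 15.1% were higher and 17.6% lower in that comparison. In the double-negative library 1 of 8 was higher and 2 lower than in PDPN+ cells, against 14.9% and 19.3% of all genes. Between CD36+ and double-negative cells 1 of 8 was higher and 0 lower, against 12.2% and 11.9% of all genes. The medians were 0.81, -0.47 and 0.88. Of 10 genes that dampen or mark ERK signalling, 8 reached 10 CPM in CD36+ or PDPN+ cells, and 1 was higher and 2 lower in CD36+ cells, near the 15.1% and 17.6% of all genes. In double-negative against PDPN+ cells 0 of 8 were higher and 3 lower, against 14.9% and 19.3% of all genes. Between CD36+ and double-negative cells 2 of 7 were higher and 0 lower, against 12.2% and 11.9% of all genes. The medians of these ERK genes were -0.59, -1.87 and 1.18. The ERK phosphatase gene Dusp6 stood at 107, 104.5 and 418 CPM, and Spry4, a feedback inhibitor, at 128, 37.7 and 16.3 CPM.

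Several epithelial transcription factor genes were far higher in PDPN+ cells, where the epithelial ETS members were scarce. Of 14 listed, 10 reached 10 CPM in CD36+ or PDPN+ cells, and 2 were higher and 4 lower in CD36+ cells, against 15.1% and 17.6% of all genes. The 2 higher were Stat5a, at 38.0, 12.6 and 7.27 CPM in CD36+, double-negative and PDPN+ cells, and Grhl1, at 13.5, 0.178 and 1.34 CPM. In double-negative against PDPN+ cells 0 of 9 were higher and 6 lower, against 14.9% and 19.3% of all genes, and the medians were -2.83 and -3.97. Trp63, the basal regulator, stood at 0.0507, 34.1 and 1753 CPM in CD36+, double-negative and PDPN+ cells, and Gata3, a luminal regulator, at 5.54, 4.73 and 236 CPM. Between CD36+ and double-negative cells 4 of 7 were higher and 1 lower, against 12.2% and 11.9% of all genes, with a median of 0.56. Of 14 epithelial genes linked to ELF3, ELF5 or EHF, 11 reached 1 CPM. At 10 CPM, 2 of 10 were higher and 2 lower in CD36+ against PDPN+ cells, against 15.1% and 17.6% of all genes. In double-negative against PDPN+ cells 1 of 9 was higher and 3 lower, against 14.9% and 19.3%. Between CD36+ and double-negative cells 2 of 9 were higher and 1 lower, against 12.2% and 11.9%. The medians of this list were -0.99, -0.97 and 0.32. Krt18 stood at 131, 145 and 284 CPM, the receptor gene Kit at 129.95, 108 and 7.36 CPM, and Csn2, a casein gene, at 11.4, 2.0 and 0.243 CPM. Wap, the whey protein gene activated by ELF5, had 0 counts in all 3.

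Genes nearest to Erg, Ets1 and Ehf in pattern were sought among 7059 coding genes by the distance of centred log2 CPM, over 3 libraries only, so many genes lie close by construction. The nearest to Erg was Igtp, an interferon-induced GTPase gene, at 325, 395 and 9.94 CPM and a distance of 0.03 log2 units, followed by Plxna4 and Ldb2. The nearest to Ets1 were the endothelial receptor gene Cd93 at 1028, 727 and 18.5 CPM, then Cyyr1 and the insulin receptor gene Insr. Those nearest to Ehf were Pgap1 at 0.203, 21.6 and 1.53 CPM, Sh2b2 and Slc15a4, at distances of 0.34 to 0.80.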

How the data were processed

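RNA sequencing of 3 sorted populations was used, 1 library each, grouped by the sort label. The authors deposited, per gene, estimated counts, which need not be whole, and TPM. Salmon 0.9.1 and mm10 were used, per the submitters' processing notes. Not given in the sources used here are the annotation release, strand setting and read filters. The deposited gene lengths and effective lengths are in bases. For genes with 1 annotated transcript, the deposited effective length was proportional to reads over TPM. Their ratio lay within 1% of its median in about 99.9% of 2299 to 2699 such genes. This did not hold for genes with several transcripts. The effective lengths were therefore replaced by reads over TPM, scaled to that median.

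Estimated counts were rounded. Symbols came from GENCODE M21 (52566 identifiers matched without version). TMM factors came from edgeR 4.0.16 in R 4.3.3 over all 3 libraries, and 2 was the prior count for log2 ratios. Other steps used Python 3.11.15, numpy 2.4.6, pandas 2.3.3, scipy 1.17.1 and matplotlib 3.10.9. Ratios carry exact Clopper-Pearson intervals and levels exact Poisson intervals, both 95%. Folds against 0 counts use a floor of 3 counts (0.0507, 0.0594 and 0.0406 CPM in CD36+, double-negative and PDPN+ cells). The ratio and interval code was tested on simulated data.

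The members and lists were chosen with earlier results of these data known. Named genes are the members, the other ETS genes with at least 1 CPM, up to 4 genes per list with the highest mean level, list genes at least 4-fold against their list, and the 3 nearest patterns. Genes apart in a list that fall outside this rule, Wap, Srf, Csn2, Spry4 and the overlapping transcripts were chosen after their values were seen. Alternatives were 3 other scalings, the deposited TPM, another prior count, another minimum, another fold and, for shares, the deposited effective lengths.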

Additional observations from a re-analysis of the deposited data

How the results depend on the processing

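No paired analysis was possible because each group had 1 library. Of the 30 member log2 ratios, 2 turned direction under another scaling or TPM. Elf1 in CD36+ over double-negative cells came to -0.022 with total counts. Elf5 in CD36+ over PDPN+ cells, whose counting interval spans 0, came to -0.31 with total counts and -0.29 with TPM, against 0.09 with TMM. Total counts and the deposited TPM left 3 members higher in CD36+ against PDPN+ cells, without Elk3, against 4 with TMM. TPM moved the median of all genes by -0.48, -0.36 and -0.13 on the log2 scale for the CD36+ over PDPN+, double-negative over PDPN+ and CD36+ over double-negative comparisons, and total counts by -0.40, -0.23 and -0.17. Upper quartile scaling moved it by 0.27, 0.28 and -0.01. With TPM, whose threshold of 10 is on another scale, Ehf fell out, so 0 members were lower in CD36+ against double-negative cells and 3 were higher in double-negative against PDPN+ cells.

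With a minimum of 1 CPM, 1 member (Ehf) was lower in CD36+ against PDPN+ cells. That minimum gave 2728 genes higher and 3705 lower in CD36+ against PDPN+ cells, 2700.0 and 3975 in double-negative against PDPN+ cells, and 2709 and 2583 in CD36+ against double-negative cells. At 2-fold the numbers were 2375 and 2633, 2419 and 2870.0, and 2056 and 1881, and the members higher were 6, 6 and 2 in the same comparisons, the last being Fli1 and Elk3, while 0, 0 and 1 were lower. With the deposited effective lengths in place of TPM, the share of Erg, Fli1 and Ets1 was 35.9%, 39.9% and 2.48% in CD36+, double-negative and PDPN+ cells, and that of Elf3, Elf5 and Ehf 0.0857%, 1.20% and 0.597%. These columns do not carry the abundance-weighted length. Depth limits Elf3, Elf5 and the CD36+ value of Ehf.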

Other observations

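Some regulators were far lower in double-negative cells than in both other libraries, and the examples here were chosen after their values were seen. Mrtfa, a coactivator of serum response factor, had 19.8 CPM in CD36+ cells, 0.0198 CPM in double-negative cells and 25.1 CPM in PDPN+ cells. Dusp5, an ERK phosphatase gene, stood at 12.6, 0.0594 and 20.8 CPM, and Spry1, a feedback inhibitor of receptor kinases, at 41.7, 1.27 and 13.6 CPM. Tfap2a stood at 16.6, 0.931 and 15.2 CPM. Etv3 and Erf in the ETS family were also lowest in double-negative cells.

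Other genes were held mainly by the double-negative library, as Ehf was. Foxa1, a luminal pioneer factor, stood at 0.0169, 9.39 and 0.0541 CPM, and Foxc2, a lymphatic and venous valve factor, at 0.0169, 8.89 and 0 CPM in CD36+, double-negative and PDPN+ cells. With 1 library for each population, such values carry no replicate error.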
